A study of Homo sapiens with 21 samples.

Results

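The human cytochrome P450 genes of families 1 to 4 encode the enzymes that oxidise most drugs and many toxicants, fatty acids and vitamins. They were followed in HepG2/C3A cells grown as a flat monolayer and as spheroids kept for up to 28 days. Members were all gene symbols in the count table made of CYP, a family number from 1 to 4, a subfamily letter and a gene number, which took 36 of 19683 genes. CYP7, CYP8, CYP24, CYP27, CYP51 and other families were left out. HepG2/C3A is a clonal derivative of HepG2, an established human liver tumour line, here with a wild-type genotype, so all groups share 1 cell line. Their label calls the cells epithelial-like, and no drug or inducer was named for any group. The groups were 3D spheroids of Days 3, 7, 10, 14, 21 and 28 and the 2D monolayer, with 3 libraries in each of the 7 groups. Cells grew in MEM with fetal bovine serum, non-essential amino acids and an antibiotic-antimycotic, and spheroids were formed in ultra-low attachment plates and then turned slowly in a ClinoStar incubator. The labels call the 3 libraries of a group biological replicates without saying what separated them, and the p-values therefore reflect how these libraries vary, which may in part be technical.

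P450 enzymes sit in the membrane of the endoplasmic reticulum, carry a heme group and receive electrons from the reductase POR, with help from cytochrome b5. In liver, family 1 genes are switched on through the aryl hydrocarbon receptor AHR, and CYP3A and CYP2B genes through the nuclear receptors PXR (NR1I2) and CAR (NR1I3), on top of liver factors such as HNF4A and C/EBP. Family 4 enzymes mostly hydroxylate the end of fatty acid chains. Cultured hepatoma lines such as HepG2 are known for low P450 levels compared with liver.

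All 4 CYP3A genes were measured in these cells, and they lie side by side on chromosome 7 (chr7:99648194-99866102, GRCh38, GENCODE 29), within 217909 bases. Their promoters are shown because the CYP3A genes moved together in the results below, and that of CYP1A1 because it did not move with them. Each is the RefSeq promoter window of 300 bases on GRCh38.p14, from 250 bases before to 50 after the gene start, and 27 of the 36 members had such a window. Capitals in the CYP3A4 and CYP3A5 promoters mark the everted repeat that PXR is known to bind in CYP3A4, which is TGAACT and AGGTCA with 6 bases between them. Only exact matches were marked. The CYP3A7 window holds TTAACT and AGGTCA with 6 bases between them, which stays in lower case. Capitals also mark a TATA box, TATAAA, in CYP3A4, CYP3A7 and CYP1A1, and GCGTG, the core of the element bound by AHR, in CYP1A1. The CYP3A43 promoter holds none of these and is printed in lower case.
CYP3A4, chr7:99784135-99784434, minus strand: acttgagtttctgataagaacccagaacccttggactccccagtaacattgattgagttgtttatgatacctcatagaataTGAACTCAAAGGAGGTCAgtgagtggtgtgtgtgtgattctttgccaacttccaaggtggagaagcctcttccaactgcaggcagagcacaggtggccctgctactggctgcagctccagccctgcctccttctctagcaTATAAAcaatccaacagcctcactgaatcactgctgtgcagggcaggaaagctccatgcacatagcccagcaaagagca
CYP3A7, chr7:99735147-99735446, minus strand: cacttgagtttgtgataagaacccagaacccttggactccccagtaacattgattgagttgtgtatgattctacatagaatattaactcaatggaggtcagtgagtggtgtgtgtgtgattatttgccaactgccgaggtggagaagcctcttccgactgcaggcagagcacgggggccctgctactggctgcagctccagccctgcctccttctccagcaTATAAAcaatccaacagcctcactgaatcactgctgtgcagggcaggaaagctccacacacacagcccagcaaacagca
CYP3A5, chr7:99679947-99680246, minus strand: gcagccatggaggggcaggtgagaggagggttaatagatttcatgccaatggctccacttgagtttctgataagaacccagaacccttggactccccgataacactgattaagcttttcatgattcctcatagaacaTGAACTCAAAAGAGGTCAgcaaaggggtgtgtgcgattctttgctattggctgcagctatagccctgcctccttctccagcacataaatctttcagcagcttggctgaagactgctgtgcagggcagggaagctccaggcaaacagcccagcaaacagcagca
CYP3A43, chr7:99827763-99828062, plus strand: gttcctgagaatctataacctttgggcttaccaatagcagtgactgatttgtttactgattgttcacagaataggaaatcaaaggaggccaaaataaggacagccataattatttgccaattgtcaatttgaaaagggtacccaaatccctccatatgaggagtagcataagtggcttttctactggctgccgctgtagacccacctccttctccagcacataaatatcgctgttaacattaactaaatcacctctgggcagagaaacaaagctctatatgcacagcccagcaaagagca
CYP1A1, chr15:74725479-74725778, minus strand: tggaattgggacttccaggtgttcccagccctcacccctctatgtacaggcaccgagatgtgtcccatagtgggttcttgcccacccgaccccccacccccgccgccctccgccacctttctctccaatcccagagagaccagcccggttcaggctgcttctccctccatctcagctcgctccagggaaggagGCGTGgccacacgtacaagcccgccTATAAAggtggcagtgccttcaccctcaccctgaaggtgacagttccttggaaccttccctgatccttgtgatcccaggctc

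Over 35116 RefSeq promoter windows, searched on both strands, the everted repeat occurred in 3, or 0.00854%, of which 2 were those of CYP3A4 and CYP3A5. TATAAA occurred in 11.5% of windows, GCGTG in 36.5% and the nuclear receptor motif AGGTCA alone in 13.8%. In CYP3A4 and CYP3A5 this motif lies inside the everted repeat. GTTAAT, part of the site of the liver factor HNF1, occurred in 6.88% of windows and among members in CYP3A43, CYP3A5 and CYP3A7. TGTTTNC, a FOXA motif, occurred in 18.0% of windows and in 10 members, and TTGCNNAA, a C/EBP motif, in 10.5% of windows and in 1 member, CYP2B6. The CYP3A4 window was identical to that of CYP3A7 at 94.3% of aligned bases, to CYP3A5 at 85.9% and to CYP3A43 at 71.8%. These matches describe the letters in the windows, and no binding was measured.

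Total counts ran from 18760232 to 43443262 per library, with a median of 31997292. Levels are given in CPM, counts scaled to the library size after TMM scaling. Replicate libraries differed by more than sampling noise in every group. Of the marker lists, the 6 hepatocyte genes (ALB, APOA1, TTR, TF, HNF4A and SERPINA1) summed to 4393 to 4784 CPM in the 2D monolayers, 24484 to 26004 on Day 3 and 35843 to 41096 on Day 7. Their sum was 35555 to 38724 on Day 10, 19524 to 25069 on Day 14, 19845 to 25510.5 on Day 21 and 16430.5 to 22396 on Day 28. Against 2D, 40.1% of all genes tested were called higher and 37.8% lower on Day 3, and 38.5% and 34.8% on Day 28. All 6 hepatocyte genes were called higher on Day 3 and on Day 28. The 2 fetal or hepatoma genes, AFP and GPC3, were also higher on both days. The 4 cholangiocyte genes summed to 532 to 566 CPM in 2D, 812 to 866 at Day 3 and 471 to 512 at Day 28. SOX9 made up most of that sum and was called higher on both days, at 718 ± 29 CPM on Day 3, 411 ± 29 on Day 28 and 356 ± 1.2 in 2D, while KRT19 and EPCAM, the other two tested, were called lower on both. KRT19 averaged 14.2 ± 0.45 CPM on Day 3, 1.03 ± 0.12 on Day 28 and 61.4 ± 6.3 in 2D, and KRT7 had at most 5 counts in any group. Endothelial genes summed to at most 1.02 CPM in any library, and the 1 tested was called higher on Day 28 and not on Day 3. Stellate or fibroblast genes summed to at most 3.29 CPM in any library, with COL1A1, COL1A2 and DCN at 0 and PDGFRB called higher on both days. Of the 3 leukocyte genes, PTPRC was at 0 in every library, and the sum was nearly all CD68, a gene of macrophage lysosomes. The sum was 43.8 to 49.8 CPM in 2D, 48.6 to 56.4 on Day 3, 60.0 to 64.6 on Day 7, 54.4 to 61.4 on Day 10, 27.9 to 33.1 on Day 14, 25.2 to 30.9 on Day 21 and 24.2 to 32.9 on Day 28. CD68 was called higher than in 2D on Days 7 and 10 and lower on Days 14, 21 and 28. The part of these markers in the P450 results was not tested. In these bulk libraries, fewer cells expressing a gene and less RNA per cell cannot be told apart.

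Most of the drug-metabolising P450s that define adult liver were at or near the detection limit in every group. A member was taken as measured when its mean reached 1 CPM in at least 1 group, as near detection when it had counts but stayed under 1 CPM in every group, and as not detected at 0 counts in all 21 libraries. By this rule 15 members were measured, 15 were near detection and 6 were not detected. The undetected genes were CYP2A6 (nicotine oxidation), CYP2A13 and the fatty acid hydroxylases CYP4A11, CYP4A22, CYP4F8 and CYP4Z1. Those near detection included CYP1A2 (caffeine), CYP1B1, CYP2A7, CYP2C8, CYP2C18, CYP2C19, the pseudogene CYP2D7, CYP2E1 (ethanol), CYP2F1, CYP2U1, CYP4B1, CYP4F3, CYP4F22 and CYP4X1. The counts of the 15 over all 21 libraries ran from 1 to 275, and 8 of them had under 10 counts in all. CYP2C19 and CYP4F3 were the 2 of these 15 with enough counts to be tested, and both stayed uncalled against 2D on Day 3 and on Day 28. The 19 untested members held 265 of the 76530 counts of all members. A gene at 0 here was not detectable at this depth by this assay's probes, and the 3 counts that a count of 0 allows are 0.0735 to 0.16 CPM, depending on the library.

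**Figure D1:**
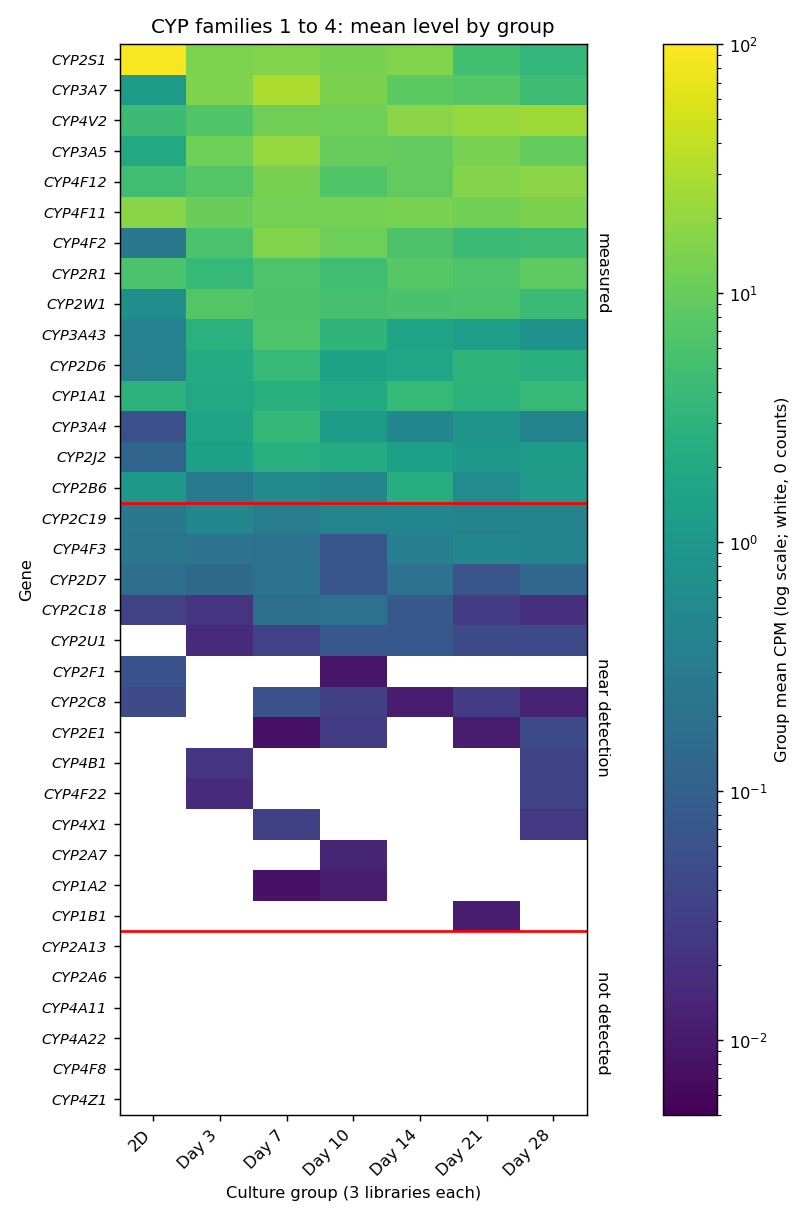
Mean level of 35 of the 36 members (rows) in the 7 culture groups (columns, 3 libraries each), as CPM on a log colour scale with white for 0 counts. Red lines part the 15 measured members at the top, 14 of the 15 near detection and the 6 not detected at the bottom.

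Detection followed the gene clusters only in part. All 4 genes of the CYP3A cluster on chromosome 7 were measured, against 0 of 5 in the CYP4A, CYP4B, CYP4X and CYP4Z cluster on chromosome 1. On chromosome 19, 3 of 6 genes of the CYP4F cluster and 2 of 6 of the CYP2A, CYP2B, CYP2F and CYP2S cluster were measured. On chromosome 15 CYP1A1 was measured and its neighbour CYP1A2 was not, and on chromosome 22 CYP2D6 was measured and CYP2D7 was not.

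The measured members followed several courses. CYP3A4, CYP3A5, CYP3A7, CYP3A43, CYP2D6, CYP2J2 and CYP4F2, 7 of 15, had their highest mean at Day 7. CYP2R1, CYP4F12 and CYP4V2 were highest at Day 28, CYP1A1 and CYP2B6 at Day 14 and CYP2W1 at Day 3. For CYP1A1 the means of Day 14, 3.79 CPM, and Day 28, 3.78 CPM, were nearly equal. CYP2S1 and CYP4F11 were highest in the 2D monolayer. Among the 17 members tested, 14 changed among the 6 spheroid days by an F test in edgeR at an adjusted p under 0.05, against 76.2% of all 12345 genes tested; the other 3 were CYP2C19, CYP4F3 and CYP4F11, the last with an adjusted p of 0.0631.

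Against the 2D monolayer, 10 of the 17 tested members were called higher and 4 lower on Day 3, where 40.1% of all genes were called higher and 37.8% lower. On Day 7, 10 were higher and 2 lower, with 40.4% and 38.4% of all genes. On Day 10, 10 were higher and 3 lower, with 40.0% and 37.9% of all genes. On Day 14, 11 were higher and 2 lower, with 38.7% and 35.7%. On Day 21, 10 were higher and 2 lower, with 39.3% and 35.1%. On Day 28, 10 were higher and 2 lower, with 38.5% and 34.8%. These 6 comparisons share their 2D libraries. Of the 17 members tested, 8 had fewer than 3 of 3 monolayer libraries over the cutoff of 0.313 CPM, so they passed the filter through the spheroids and could hardly have been called lower; the counts of higher calls, and medians over these members, are therefore descriptions and no support. These 8 were CYP2C19, CYP2D6, CYP2J2, CYP2W1, CYP3A4, CYP3A43, CYP4F2 and CYP4F3. Where their own fold changes, p-values and separation from 2D are given below, the same limit holds. By gene, 9 members were higher on all 6 days, namely CYP2D6, CYP2J2, CYP2W1, CYP3A4, CYP3A5, CYP3A7, CYP4F2, CYP4F12 and CYP4V2, and CYP3A43 on all but Day 28. CYP2S1 and CYP4F11 were lower on all 6 days. The median log2 fold change of the 15 measured members was 2.42 on Day 3 and 1.99 on Day 28, beside 0.06 and 0.08 over all genes tested. Scaling to library size alone moved the median of all genes by 0.136 to 0.216 (log2) towards the spheroids.

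**Figure D2:**
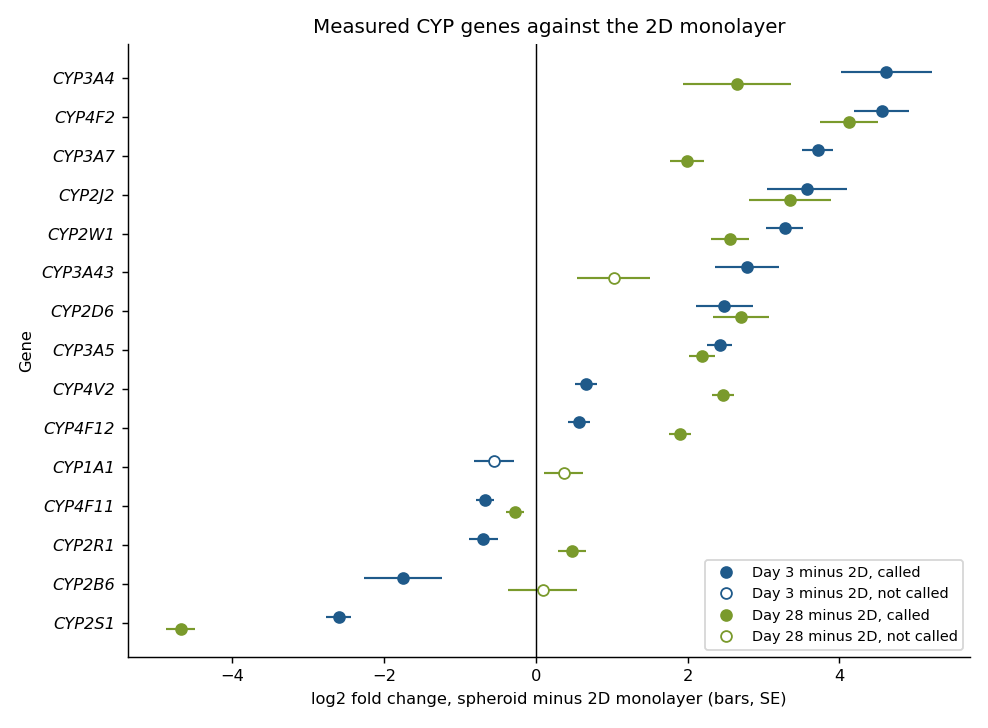
Fitted log2 fold change against the 2D monolayer for the 15 measured members at Day 3 and Day 28, with SE bars, filled points called at an adjusted p under 0.05 and open points not called. CYP3A4 and CYP4F2 lie farthest to the right at Day 3, at 4.62 and 4.56, and CYP2S1 lies farthest to the left on both days, at -2.60 and -4.68.

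Of the 5 steps between neighbouring spheroid days, the step to Day 7 held the most rises of members and the step to Day 10 the most falls. On Day 7 against Day 3, 9 members were called higher and 0 lower, where 10.6% of all genes were higher and 8.76% lower; at an unadjusted p under 0.05 edgeR also had 0 lower, and DESeq2 called 0. On Day 10 against Day 7, 0 were higher and 6 lower, with 13.9% and 13.5% of all genes; edgeR had 0 higher at an unadjusted p under 0.05 and DESeq2 called 0. On Day 14 against Day 10, 5 were higher and 4 lower, with 24.0% and 24.3% of all genes. On Day 21 against Day 14, 3 were higher and 2 lower, with 13.9% and 12.7%. On Day 28 against Day 21, 0 were higher, also at an unadjusted p under 0.05 and with DESeq2, and 2 lower, with 10.0% and 14.0%. With library size alone as the scale, the share of higher calls among all genes called was 39.4% in place of 54.8% for Day 7 against Day 3, and 55.6% in place of 41.8% for Day 28 against Day 21. On Day 28 against Day 3, 6 members were higher and 5 lower, with 29.5% and 30.2% of all genes. The mean of Days 14, 21 and 28 against that of Days 3, 7 and 10 had 7 higher and 7 lower, with 34.1% and 34.0%. This split at Day 14 came from earlier results of these data, so its calls are descriptions and no support.

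The CYP3A genes rose together in spheroids, peaked at Day 7 and then fell. All 4 were called higher than in 2D on each day from Day 3 to Day 21, and 3 of 4 on Day 28, where 38.5% to 40.4% of all genes were called higher on these days; CYP3A4 and CYP3A43 are among the members that passed the filter through the spheroids. All 4 rose on Day 7 against Day 3, with 10.6% of all genes, and all 4 fell on Day 10 against Day 7, with 13.5%. All 4 were lower on average over Days 14 to 28 than over Days 3 to 10, with 34.0% of all genes. That split of days came from earlier results of these data, so this count is a description.

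CYP3A4, the main drug-oxidising P450 of adult liver (chr7:99756960-99784265, minus strand), was almost absent from the monolayers, with 0, 4 and 2 counts in the 3 libraries. It had 0, 0.102 and 0.0651 CPM in the 2D monolayers. In spheroids it held 1.84, 1.66 and 1.42 CPM at Day 3, 3.45, 2.58 and 4.78 at Day 7 and 1.08, 1.09 and 1.16 at Day 10. By Day 14 the level was 0.299, 0.245 and 0.967 CPM, then 1.06, 0.81 and 0.607 at Day 21 and 0.427, 0.205 and 0.66 at Day 28. Every spheroid library was above every monolayer library, and all 3 libraries of Day 7 were above those of all other groups. In the edgeR fit the log2 fold change against 2D was 4.62 ± 0.60 (adjusted p = 2.35e-08) on Day 3, 5.75 ± 0.58 (adjusted p = 8.42e-11) on Day 7 and 2.65 ± 0.71 (adjusted p = 0.00128) on Day 28, and it rests on 6 monolayer counts. Without monolayer replicate 2, which held 4 of them, the Day 3 value was 5.34. Day 28 differed from Day 3 by a log2 fold change of -1.97 ± 0.46 (adjusted p = 0.000474). The rise on Day 7 against Day 3, 1.13 ± 0.38 (adjusted p = 0.034), kept its call in 1 of 6 fits that left out 1 library, the one without Day 7 replicate 2. The fall on Day 14 against Day 10, -1.14 ± 0.45 (adjusted p = 0.0368), likewise kept its call in 1 of 6, without Day 14 replicate 3, where it was -2.0; that library held 0.967 CPM against 0.299 and 0.245 in the other two. It was also lost with library size alone and with only the groups compared.

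CYP3A5, which overlaps CYP3A4 in its substrates and is absent from the liver of many adults (chr7:99648194-99680026, minus strand), had 1.95, 1.91 and 2.37 CPM in the 2D monolayers. Spheroid libraries had 11, 11.1 and 11.3 CPM at Day 3, 19.5, 20.9 and 22.5 at Day 7 and 8.52, 9.72 and 11.3 at Day 10. The Day 14 libraries had 10.5, 9.3 and 8.14 CPM, with 14.2, 12.7 and 13.7 at Day 21 and 12.5, 8.27 and 7.96 at Day 28. The groups did not overlap between spheroids of any day and 2D, and Day 7 stood above all other days. In the edgeR fit the log2 fold change against 2D was 2.42 ± 0.17 (adjusted p = 8.43e-15) on Day 3, 3.33 ± 0.17 (adjusted p = 1.21e-18) on Day 7 and 2.19 ± 0.17 (adjusted p = 2.53e-13) on Day 28. Its fall on Day 10 against Day 7 was -1.09 ± 0.14 (adjusted p = 6.8e-07), and a second rise on Day 21 against Day 14 was 0.54 ± 0.14 (adjusted p = 0.00467). The fall on Day 28 against Day 21, -0.51 ± 0.14 (adjusted p = 0.00884), lost its call without Day 28 replicate 2 (adjusted p = 0.076) and without Day 28 replicate 3 (adjusted p = 0.0736), and with only the groups compared. Spheroids of Day 28 differed from those of Day 3 by a log2 fold change of -0.23 ± 0.15 (adjusted p = 0.174), and CYP3A5 was the one CYP3A gene not called lower there; without Day 28 replicate 1 it was called, at -0.44, adjusted p = 0.00978.

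CYP3A7, the main CYP3A enzyme of fetal liver (chr7:99684957-99735196, minus strand), had 0.805, 1.48 and 1.01 CPM in the 2D monolayers. The spheroids reached 16, 14.4 and 14.5 CPM at Day 3, 23.6, 33.3 and 32.4 at Day 7 and 13.8, 12.4 and 15.8 at Day 10. From Day 14 it was 8.68, 8.63 and 7.17 CPM, then 7.4, 7.32 and 7.03 at Day 21 and 6.24, 3.42 and 4.27 at Day 28. All spheroid libraries were above all monolayer libraries, and the group mean ran down from Day 7 to Day 28. Against 2D the log2 fold change came to 3.72 ± 0.20 (adjusted p = 2.88e-17) on Day 3, 4.71 ± 0.20 (adjusted p = 4.41e-20) on Day 7 and 1.99 ± 0.22 (adjusted p = 1.45e-09) on Day 28. By Day 28 it fell, against Day 3, by 1.73 ± 0.17 on the log2 scale (adjusted p = 3.39e-10). Its fall on Day 28 against Day 21, -0.68 ± 0.18 (adjusted p = 0.00522), lost its call without Day 28 replicate 2 (adjusted p = 0.0783).

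CYP3A43, a CYP3A gene of low expression in adult liver (chr7:99828013-99866102, plus strand), had 0.127, 0.509 and 0.488 CPM in the 2D monolayers. Among spheroids the values were 2.19, 2.66 and 3.44 CPM at Day 3, 6.52, 7.67 and 5.78 at Day 7 and 1.2, 3.54 and 5.13 at Day 10. At Day 14 there were 1.62, 1.82 and 1.37 CPM, with 1.32, 0.87 and 1.53 at Day 21 and 0.80, 0.585 and 1.09 at Day 28. The 3 Day 10 libraries spread widely, and the Day 28 libraries came close to the highest monolayer library. Relative to 2D the log2 fold change was 2.78 ± 0.42 (adjusted p = 7.5e-07) on Day 3 and 4.05 ± 0.41 (adjusted p = 3.11e-10) on Day 7. On Day 28 it was 1.03 ± 0.48, not called at an adjusted p of 0.0566. It was called with DESeq2 (adjusted p = 0.0267), with library size alone (adjusted p = 0.0234) and without monolayer replicate 2 (adjusted p = 0.0459). Calls also came with the replicate number as a block (adjusted p = 0.0393), with no filter on low counts (adjusted p = 0.0109) and without Day 28 replicate 2 (adjusted p = 0.0333). The fall on Day 10 against Day 7, -1.0 ± 0.32 (adjusted p = 0.0209), lost its call without Day 7 replicate 2, without Day 10 replicate 1 or 2 and with only the groups compared. The fall on Day 14 against Day 10, -1.06 ± 0.35 (adjusted p = 0.0136), lost it without Day 10 replicate 3 or Day 14 replicate 3.

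**Figure D3:**
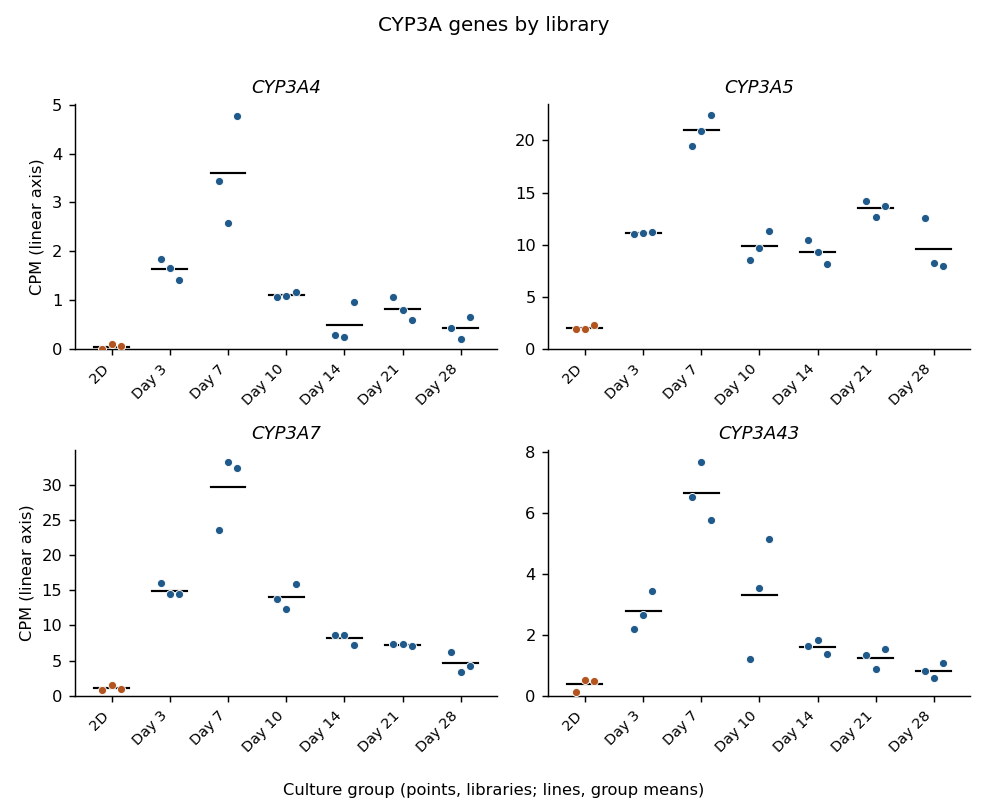
Level of the 4 CYP3A genes in each library (points) with group means (lines), in CPM on linear axes that differ between panels, for the 2D monolayer and the 6 spheroid days. In all 4 panels the Day 7 group mean is the highest, at 3.6 CPM for CYP3A4, 21 for CYP3A5, 29.8 for CYP3A7 and 6.66 for CYP3A43.

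The table also held the readthrough gene CYP3A7-CYP3A51P (chr7:99685226-99735093, minus strand), which overlaps CYP3A7 and which the symbol rule did not take; it was looked at after its values were seen. Its mean level was 8.0 ± 0.35 CPM in 2D, 125 ± 2.8 on Day 3, 299.5 ± 19 on Day 7, 131 ± 3.2 on Day 10, 52.2 ± 6.4 on Day 14, 55.4 ± 2.9 on Day 21 and 30.8 ± 12 on Day 28 (SD, n = 3). It too was highest at Day 7 and lowest in 2D, with log2 fold changes against 2D of 3.96 ± 0.21 (adjusted p = 2.42e-11) on Day 3 and 1.92 ± 0.21 (adjusted p = 4.19e-07) on Day 28. Its counts and those of CYP3A7 may come from overlapping transcripts. Whether their probes tell the genes apart is a detail not given in the sources used here. The assay reads a stretch of about 50 bases per probe, and 8.62% of the 50-base windows of CYP3A4 coding transcripts also occur in other P450 genes (the readthrough gene not counted), 9.99% for CYP3A7, 2.00% for CYP3A5 and 0.422% for CYP3A43. The single-gene values of CYP3A4 and CYP3A7, whose transcripts were 93.1% identical, are uncertain in that respect.

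In family 1, CYP1A1 was the one measured gene, and it followed a different course from CYP3A. CYP1A1, which oxidises polycyclic aromatic hydrocarbons and is the classic target of AHR (chr15:74719542-74725610, minus strand), had 3.52, 2.54 and 2.8 CPM in the 2D monolayers. In spheroids it held 2.14, 1.49 and 2.37 CPM at Day 3, 2.4, 2.4 and 2.6 at Day 7 and 2.11, 2.4 and 1.97 at Day 10. By Day 14 the level was 3.56, 3.22 and 4.6 CPM, then 2.64, 2.22 and 3.7 at Day 21 and 3.09, 2.89 and 5.36 at Day 28. Monolayer and spheroid libraries overlapped on Day 7 and from Day 14 on, while the 9 libraries of Days 3 to 10 reached at most 2.60 CPM. It was called on 0 of 6 days against 2D with edgeR, with 1 day at an unadjusted p under 0.05 and 1 day called with DESeq2. That day was Day 3, at -0.55 ± 0.26 with an adjusted p of 0.0538, where DESeq2 gave -0.57, adjusted p = 0.0406. It was also called with RLE size factors (adjusted p = 0.045), with the replicate number as a block (adjusted p = 0.0337), without monolayer replicate 2 and without Day 3 replicate 3. With library size alone it was called higher on Day 14 (0.57, adjusted p = 0.0454) and Day 28 (0.59, adjusted p = 0.0414). Among spheroids it rose on Day 14 against Day 10, 0.81 ± 0.26 (adjusted p = 0.00888), and on Day 28 against Day 3, 0.92 ± 0.26 (adjusted p = 0.0028). These calls were lost without Day 14 replicate 3 (0.66, adjusted p = 0.0601) and without Day 28 replicate 3 (0.60, adjusted p = 0.0603). Over Days 14 to 28 against Days 3 to 10 the log2 fold change was 0.64 ± 0.15 (adjusted p = 0.000253). That split of days came from earlier results of these data, so this p-value is a description and no support.

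Among the CYP2 genes, CYP2S1 fell in spheroids, CYP2W1, CYP2J2 and CYP2D6 rose, and CYP2B6 and CYP2R1 moved in both directions. CYP2S1, a P450 of epithelia outside the liver that responds to AHR ligands (chr19:41193049-41207539, plus strand), had 81.6, 98.1 and 89.4 CPM in the 2D monolayers. Spheroid libraries had 16.1, 16.8 and 11.6 CPM at Day 3, 15.7, 14.8 and 15.5 at Day 7 and 14.7, 11.8 and 13.6 at Day 10. The Day 14 libraries had 14.5, 13.1 and 18.5 CPM, with 7.0, 4.08 and 3.8 at Day 21 and 3.74, 3.25 and 3.61 at Day 28. It fell in 2 steps, with all spheroid libraries below all monolayer libraries and those of Days 21 and 28 below the earlier days. Its log2 fold change against 2D was -2.60 ± 0.16 (adjusted p = 3.63e-13) on Day 3 and -4.68 ± 0.19 (adjusted p = 1.04e-16) on Day 28, and it was -1.63 ± 0.18 (adjusted p = 2.33e-07) on Day 21 against Day 14. Between Day 28 and Day 21 the log2 fold change was -0.51 ± 0.21 (adjusted p = 0.0795). It was called with DESeq2 (adjusted p = 0.0306), with no filter on low counts (adjusted p = 0.00412) and without Day 21 replicate 3 (adjusted p = 0.0197).

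CYP2W1, a P450 of fetal gut and colon tumours (chr7:983199-989640, plus strand), averaged 0.676 ± 0.31 CPM in 2D, 6.96 ± 1.4 on Day 3, 6.24 ± 0.54 on Day 7, 5.3 ± 0.42 on Day 10, 5.91 ± 0.84 on Day 14, 6.05 ± 0.85 on Day 21 and 4.2 ± 0.76 on Day 28 (SD, n = 3). All spheroid libraries were above the highest monolayer library, at 0.942 CPM, with log2 fold changes of 3.28 ± 0.24 (adjusted p = 5.75e-14) on Day 3 and 2.56 ± 0.25 (adjusted p = 7.41e-11) on Day 28. Day 28 libraries differed from those of Day 21 by a log2 fold change of -0.52 ± 0.20 (adjusted p = 0.0587), and DESeq2 called it (adjusted p = 0.0373). CYP2J2, which makes epoxides of arachidonic acid (chr1:59893308-59926790, minus strand), had 0.254, 0.0509 and 0.0651 CPM in the 2D monolayers. The spheroids reached 1.37, 1.42 and 1.24 CPM at Day 3, 2.13, 2.75 and 2.5 at Day 7 and 2.69, 1.61 and 2.36 at Day 10. From Day 14 it was 2.21, 0.944 and 0.834 CPM, then 0.832, 0.87 and 1.28 at Day 21 and 1.28, 0.76 and 1.47 at Day 28. Every spheroid library was above every monolayer library, and the log2 fold change was 3.57 ± 0.52 (adjusted p = 2.34e-07) on Day 3 and 3.35 ± 0.54 (adjusted p = 1.41e-06) on Day 28. Without monolayer replicate 1, the highest of the 3, these became 4.43 and 4.23. CYP2W1 and CYP2J2 passed the filter through the spheroids, so their calls against 2D are descriptions.

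CYP2D6, which oxidises codeine and many antidepressants (chr22:42126499-42130906, minus strand), had 0.169, 0.254 and 0.716 CPM in the 2D monolayers. Among spheroids the values were 1.84, 1.8 and 2.91 CPM at Day 3, 4.01, 4.25 and 3.35 at Day 7 and 1.03, 1.93 and 1.74 at Day 10. At Day 14 there were 1.38, 1.75 and 2.24 CPM, with 3.47, 2.88 and 3.0 at Day 21 and 3.04, 1.84 and 2.79 at Day 28. All spheroid libraries were above all monolayer libraries, and the Day 7 and Day 21 groups stood above Days 10 and 14. CYP2D6 is among the members that passed the filter through the spheroids. In the edgeR fit the log2 fold change against 2D was 2.48 ± 0.37 (adjusted p = 3.56e-07) on Day 3, 3.32 ± 0.36 (adjusted p = 5.12e-10) on Day 7 and 2.70 ± 0.37 (adjusted p = 9.52e-08) on Day 28; without monolayer replicate 3 the Day 28 value was 3.52. The rises on Day 7 against Day 3, 0.83 ± 0.29 (adjusted p = 0.0429), and on Day 21 against Day 14, 0.81 ± 0.30 (adjusted p = 0.046), each kept their call in 1 of 6 fits that left out 1 library, without Day 3 replicate 3 and without Day 14 replicate 3, and both were lost with library size alone. Of its 50-base windows, 38.0% also occur in other P450 genes, and its transcript was 96.7% identical to CYP2D7, so its values are uncertain in that respect.

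CYP2B6, which oxidises bupropion and cyclophosphamide and is induced through CAR (chr19:40991250-41018398, plus strand), had 0.932, 0.942 and 1.11 CPM in the 2D monolayers. In spheroids it held 0.373, 0.415 and 0.0709 CPM at Day 3, 0.727, 0.431 and 0.465 at Day 7 and 0.455, 0.408 and 0.484 at Day 10. By Day 14 the level was 1.71, 2.03 and 3.34 CPM, then 0.832, 0.24 and 0.734 at Day 21 and 0.587, 1.14 and 1.4 at Day 28. The 3 Day 14 libraries were above those of all other groups, and those of Days 3, 7 and 10 were all below the monolayers. Against 2D the log2 fold change came to -1.75 ± 0.51 (adjusted p = 0.00259) on Day 3, -1.14 ± 0.49 (adjusted p = 0.0343) on Day 10, 1.24 ± 0.44 (adjusted p = 0.0118) on Day 14 and 0.09 ± 0.46 (adjusted p = 0.867) on Day 28. The Day 14 call was lost without Day 14 replicate 3 (0.93, adjusted p = 0.0959), and the Day 10 call without monolayer replicate 2 or 3, without any 1 Day 10 library and with library size alone. CYP2B6 rose on Day 14 against Day 10, 2.38 ± 0.48 (adjusted p = 8.8e-05), and fell on Day 21 against Day 14, -1.96 ± 0.46 (adjusted p = 0.00139). The related pseudogene CYP2B7P, looked at after its values were seen, averaged 0.187 CPM at Day 14 and 0.663 CPM in 2D, and 9.57% of the 50-base windows of CYP2B6 occur in other P450 genes.

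CYP2R1, the main vitamin D hydroxylase of liver (chr11:14877440-14892252, minus strand), had 6.19, 4.96 and 6.99 CPM in the 2D monolayers. Spheroid libraries had 2.93, 4.22 and 4.15 CPM at Day 3, 4.98, 7.67 and 7.15 at Day 7 and 4.68, 5.53 and 4.32 at Day 10. The Day 14 libraries had 6.47, 8.88 and 7.74 CPM, with 6.03, 7.59 and 5.78 at Day 21 and 9.39, 7.48 and 8.38 at Day 28. The Day 3 libraries were all below the monolayers and the Day 28 libraries all above them. Relative to 2D the log2 fold change was -0.69 ± 0.19 (adjusted p = 0.00186) on Day 3 and 0.48 ± 0.19 (adjusted p = 0.023) on Day 28. Its Day 28 call was lost when monolayer replicate 2 was left out (adjusted p = 0.114) and without Day 28 replicate 1 (adjusted p = 0.0967). On Day 14, 0.35 ± 0.19 was not called (adjusted p = 0.088), but was with library size alone (adjusted p = 0.00913), without monolayer replicate 3 and without Day 14 replicate 1.

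**Figure D4:**
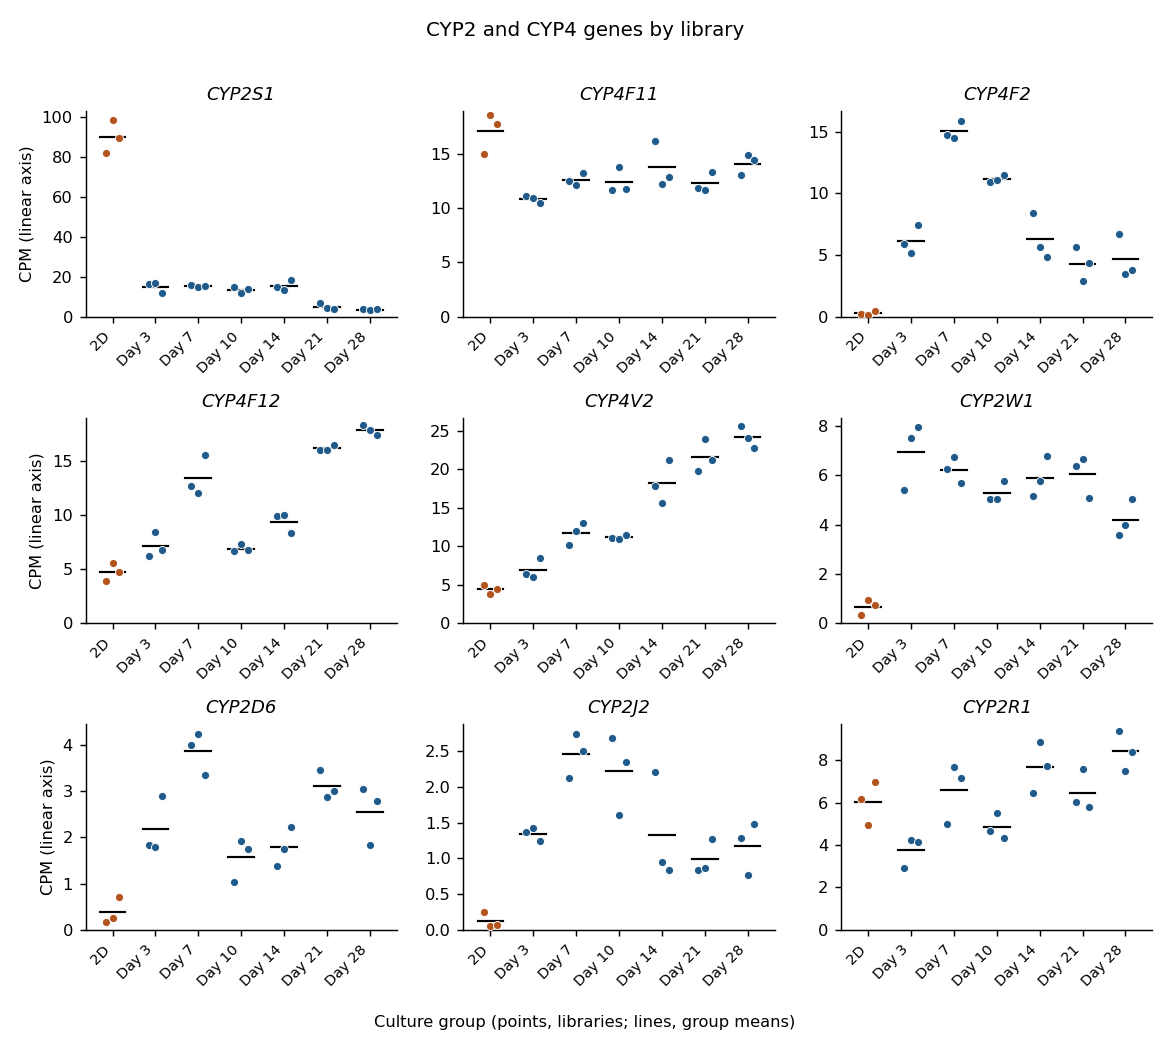
Level of 9 CYP2 and CYP4 genes in each library (points) with group means (lines), in CPM on linear axes that differ between panels. CYP2S1 drops between 2D and Day 3 and again at Day 21, CYP4F2, CYP2D6 and CYP2J2 have their highest mean at Day 7, and CYP4V2 climbs to 24.2 CPM at Day 28.

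Of the CYP4 genes, CYP4F2 rose most, with its highest mean at Day 7. CYP4F12 and CYP4V2 rose further in older spheroids, and CYP4F11 fell slightly. CYP4F2, which hydroxylates arachidonic acid and vitamins E and K (chr19:15878023-15898120, minus strand), had 0.169, 0.153 and 0.455 CPM in the 2D monolayers. The spheroids reached 5.87, 5.15 and 7.41 CPM at Day 3, 14.8, 14.5 and 15.9 at Day 7 and 10.9, 11.1 and 11.5 at Day 10. From Day 14 it was 8.41, 5.66 and 4.8 CPM, then 5.65, 2.91 and 4.34 at Day 21 and 6.67, 3.48 and 3.8 at Day 28. All spheroid libraries were above all monolayer libraries, and Day 7 was above the other days. CYP4F2 too passed the filter through the spheroids. Its log2 fold change against 2D was 4.56 ± 0.37 (adjusted p = 1.83e-11) on Day 3, 5.85 ± 0.35 (adjusted p = 4.05e-14) on Day 7 and 4.12 ± 0.38 (adjusted p = 3.62e-10) on Day 28; without monolayer replicate 3 the Day 28 value was 4.83. On Day 10 against Day 7, -0.43 was not called in edgeR (adjusted p = 0.163). It was called with no filter on low counts (adjusted p = 0.0402) and with only the groups compared (adjusted p = 0.00485). The fall on Day 14 against Day 10 kept its call in all 6 fits that left out 1 library, at -1.08 to -0.65. The Day 28 spheroids differed from Day 3 by a log2 fold change of -0.43 ± 0.25 (adjusted p = 0.141), and CYP4F2 was called lower without Day 28 replicate 1 (-0.74, adjusted p = 0.00961). Of its 50-base windows, 15.3% also occur in other P450 genes, and its transcript was 93.8% identical to CYP4F3.

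CYP4F12, a fatty acid hydroxylase that also oxidises antihistamines (chr19:15672757-15697174, plus strand), had 3.9, 5.55 and 4.72 CPM in the 2D monolayers. Among spheroids the values were 6.16, 8.37 and 6.77 CPM at Day 3, 12.7, 12 and 15.5 at Day 7 and 6.66, 7.27 and 6.71 at Day 10. At Day 14 there were 9.85, 10.0 and 8.27 CPM, with 16, 16 and 16.4 at Day 21 and 18.2, 17.8 and 17.3 at Day 28. Its course had 2 high points, Day 7 and Days 21 to 28, with Day 10 between them below both. In the edgeR fit the log2 fold change against 2D was 0.57 ± 0.15 (adjusted p = 0.000719) on Day 3 and 1.90 ± 0.14 (adjusted p = 8.63e-14) on Day 28, and against the day before it was -0.96 ± 0.14 (adjusted p = 2.93e-06) on Day 10 and 0.78 ± 0.13 (adjusted p = 3.12e-05) on Day 21. CYP4V2, a fatty acid hydroxylase mutated in Bietti crystalline dystrophy of the retina (chr4:186191520-186213456, plus strand), had 4.96, 3.79 and 4.46 CPM in the 2D monolayers. In spheroids it held 6.34, 6.05 and 8.4 CPM at Day 3, 10.1, 12 and 13.1 at Day 7 and 11.1, 11 and 11.5 at Day 10. By Day 14 the level was 17.9, 15.6 and 21.2 CPM, then 19.8, 23.9 and 21.2 at Day 21 and 25.6, 24.1 and 22.8 at Day 28. All Day 28 libraries were above those of Days 3 to 14 and of 2D. Against 2D the log2 fold change came to 0.66 ± 0.15 (adjusted p = 0.000168) on Day 3 and 2.47 ± 0.14 (adjusted p = 1.38e-16) on Day 28, and on Day 28 against Day 3 it was 1.80 ± 0.14 (adjusted p = 3.75e-13).

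CYP4F11, a hydroxylase of long-chain fatty acids and vitamin K (chr19:15912367-15934867, minus strand), had 15, 18.6 and 17.8 CPM in the 2D monolayers. Spheroid libraries had 11.1, 10.9 and 10.5 CPM at Day 3, 12.5, 12.1 and 13.3 at Day 7 and 11.7, 13.8 and 11.8 at Day 10. The Day 14 libraries had 16.2, 12.2 and 12.9 CPM, with 11.9, 11.7 and 13.3 at Day 21 and 13.1, 14.9 and 14.4 at Day 28. The Day 3 libraries were all below the monolayers, while on Day 14 the groups overlapped. Relative to 2D the log2 fold change was -0.66 ± 0.12 (adjusted p = 8.37e-06) on Day 3, -0.32 ± 0.12 (adjusted p = 0.0169) on Day 14 and -0.28 ± 0.12 (adjusted p = 0.0369) on Day 28. With library size alone neither the Day 14 (-0.13, adjusted p = 0.347) nor the Day 28 value (-0.06, adjusted p = 0.659) was called. The Day 28 call was also lost with no filter on low counts and without monolayer replicate 2 or 3 or any 1 Day 28 library, and the Day 14 call without monolayer replicate 2 or 3 or Day 14 replicate 2 or 3. CYP4F2 and CYP4F12 of the same cluster were called higher on all 6 days, and the difference between these genes and CYP4F11 was not tested.

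Summed over all members, the level was 132 ± 10.1 CPM in 2D, 93.8 ± 1.7 on Day 3, 152 ± 11 on Day 7, 101 ± 5.0 on Day 10, 107 ± 5.3 on Day 14, 103 ± 2.2 on Day 21 and 102 ± 6.7 on Day 28 (SD, n = 3). The sum weights each gene by its probe, so it compares libraries and not genes. It leaves out the readthrough gene CYP3A7-CYP3A51P, whose mean on Day 3, on Day 7 and on Day 10 was above the whole sum. Its counts and those of CYP3A7 may come from overlapping transcripts. The sum, its order between groups and the CYP3A shares therefore depend on leaving it out. CYP2S1 made up 68 ± 1.5% of it in 2D, 15.8 ± 3.1% at Day 3 and 3.45 ± 0.085% at Day 28. The CYP3A genes made up 2.72 ± 0.30% in 2D, 32.5 ± 1.2% at Day 3, 39.9 ± 2.0% at Day 7 and 15 ± 2.9% at Day 28. CYP4V2 made up 3.38 ± 0.70% in 2D, 7.38 ± 1.3% at Day 3 and 23.7 ± 1.4% at Day 28. Without CYP2S1 the sum was 42.1 ± 2.6 CPM in 2D, 137 ± 11 at Day 7 and 98.6 ± 6.4 at Day 28, and the order of 2D and Day 28 in the sum turned round.

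The P450 genes outside families 1 to 4 are mostly enzymes of sterol, bile acid and vitamin metabolism. Of the 20 such genes, 14 were tested. Of these, 9 were called higher and 3 lower than in 2D on Day 3, where 40.1% of all genes were higher and 37.8% lower. On Day 28, 8 were higher and 1 lower, with 38.5% and 34.8% of all genes. Their median log2 fold change was 1.5 on Day 3 and 1.42 on Day 28, beside 0.06 and 0.08 over all genes tested.

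Of 6 electron transfer partners, 5 were called higher and 1, POR, lower than in 2D on Day 3, where 40.1% of all genes were higher and 37.8% lower. On Day 28, 4 were higher and the other two were not called, with 38.5% and 34.8% of all genes. Their median log2 fold change was 1.23 on Day 3 and 0.36 on Day 28. POR averaged 749 ± 66 CPM in 2D, 406 ± 19 on Day 3, 477 ± 27 on Day 7, 444 ± 7.7 on Day 10, 756 ± 15 on Day 14, 780.5 ± 39 on Day 21 and 749 ± 109.7 on Day 28 (SD, n = 3), so it was about as high in late spheroids as in 2D; its log2 fold change was -0.88 ± 0.08 (adjusted p = 1.89e-12) on Day 3. CYB5A, microsomal cytochrome b5, averaged 1.78 ± 0.32 CPM at Day 3, 0.993 ± 0.36 at Day 28 and 0.123 ± 0.040 in 2D, with log2 fold changes of 3.87 ± 0.48 (adjusted p = 7.44e-09) and 3.04 ± 0.50 (adjusted p = 2.31e-06). Its 2D level lies under the filter cutoff of 0.313 CPM, so it passed through the spheroids and could hardly have been called lower. The higher calls and medians of this list include it and are descriptions. CYB5B, the mitochondrial form, had a log2 fold change of 1.74 ± 0.06 (adjusted p = 4.69e-22) on Day 3, and PGRMC2, which binds heme, one of 0.71 ± 0.06 (adjusted p = 8.36e-12) on Day 28. Among 8 genes of heme synthesis, 7 were higher and 1 lower on Day 3, and 6 higher and 1 lower on Day 28, against the same shares of all genes, with medians of 1.27 and 1.21 (log2). On Day 3 the log2 fold change of UROS was 3.56 ± 0.10 (adjusted p = 3.66e-25), that of CPOX 2.65 ± 0.14 (adjusted p = 7.56e-18) and that of UROD -0.96 ± 0.23 (adjusted p = 0.00046). On Day 28 the log2 fold change of UROS was 2.75 ± 0.10 (adjusted p = 5.71e-22), that of ALAD 1.82 ± 0.12 (adjusted p = 2.62e-15) and that of ALAS1, the rate-limiting enzyme, -0.49 ± 0.07 (adjusted p = 1.16e-07).

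Of 6 tested AHR pathway genes, 2 were called higher and 4 lower than in 2D on Day 3, so that the higher calls lay near the 40.1% of all genes, while 37.8% of all genes were lower. On Day 28, 4 were lower and the other two were not called, with 34.8% of all genes lower and 38.5% higher. The list's median log2 fold change was -0.64 on Day 3 and -1.02 on Day 28. AHR itself averaged 54.3 ± 2.7 CPM in 2D, 11.3 ± 0.64 on Day 3, 12.7 ± 0.89 on Day 7, 11.4 ± 1.5 on Day 10, 31.6 ± 3.5 on Day 14, 26.7 ± 1.9 on Day 21 and 27.5 ± 6.8 on Day 28 (SD, n = 3), with log2 fold changes of -2.27 ± 0.13 (adjusted p = 1.36e-16) on Day 3 and -0.97 ± 0.12 (adjusted p = 2.29e-08) on Day 28. AHRR, the AHR repressor, was not tested, with a group mean of at most 0.235 CPM. Of 14 nuclear receptors and liver factors, 8 were higher and 4 lower on Day 3, and 9 higher and 4 lower on Day 28, with medians of 0.52 and 0.47 (log2). Of all genes, 40.1% were called higher and 37.8% lower on Day 3, with 38.5% and 34.8% on Day 28. NR1I2, which encodes PXR, averaged 3.41 ± 0.43 CPM in 2D, 7.04 ± 1.5 on Day 3, 8.0 ± 0.49 on Day 7, 5.26 ± 0.54 on Day 10, 4.85 ± 0.30 on Day 14, 4.8 ± 0.015 on Day 21 and 3.55 ± 0.95 on Day 28, with log2 fold changes of 1.05 ± 0.19 (adjusted p = 6.77e-06) on Day 3 and 0.03 ± 0.20 (adjusted p = 0.884) on Day 28. NR1I3, which encodes CAR, averaged 1.01 ± 0.38 CPM in 2D, 1.28 ± 0.21 on Day 3, 3.48 ± 1.2 on Day 7, 2.38 ± 0.25 on Day 10, 3.54 ± 0.41 on Day 14, 8.07 ± 0.70 on Day 21 and 6.83 ± 3.1 on Day 28, with log2 fold changes of 0.37 ± 0.32 (adjusted p = 0.297) on Day 3 and 2.77 ± 0.29 (adjusted p = 4.33e-10) on Day 28.

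HNF4A, a central factor of hepatocyte identity, had a log2 fold change of 1.34 ± 0.11 (adjusted p = 1.25e-12) on Day 3 and 1.81 ± 0.11 (adjusted p = 8.81e-16) on Day 28. CEBPA, the C/EBP form of resting hepatocytes, averaged 229.7 ± 21 CPM at Day 3, 140.1 ± 16 at Day 28 and 22.8 ± 0.78 in 2D, and CEBPB, the form linked to the acute-phase response, 59.6 ± 1.5 at Day 3, 266 ± 6.6 at Day 28 and 499 ± 13 in 2D. Their log2 fold changes on Day 3 were 3.33 ± 0.08 (adjusted p = 1.49e-26) and -3.06 ± 0.07 (adjusted p = 2.4e-27). ONECUT1, or HNF6, another liver factor, had a log2 fold change of 3.06 ± 0.25 (adjusted p = 6.01e-13) on Day 3 and 2.98 ± 0.25 (adjusted p = 2.07e-12) on Day 28. FOXA3, a pioneer factor of liver genes, had one of -1.78 ± 0.08 (adjusted p = 1.85e-20) on Day 3 and -1.22 ± 0.07 (adjusted p = 4.66e-16) on Day 28, and FOXA2, its relative, one of -1.37 ± 0.13 (adjusted p = 1.75e-10) on Day 28. The part of these partners and regulators in the P450 levels was not tested.

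**Figure D5:**
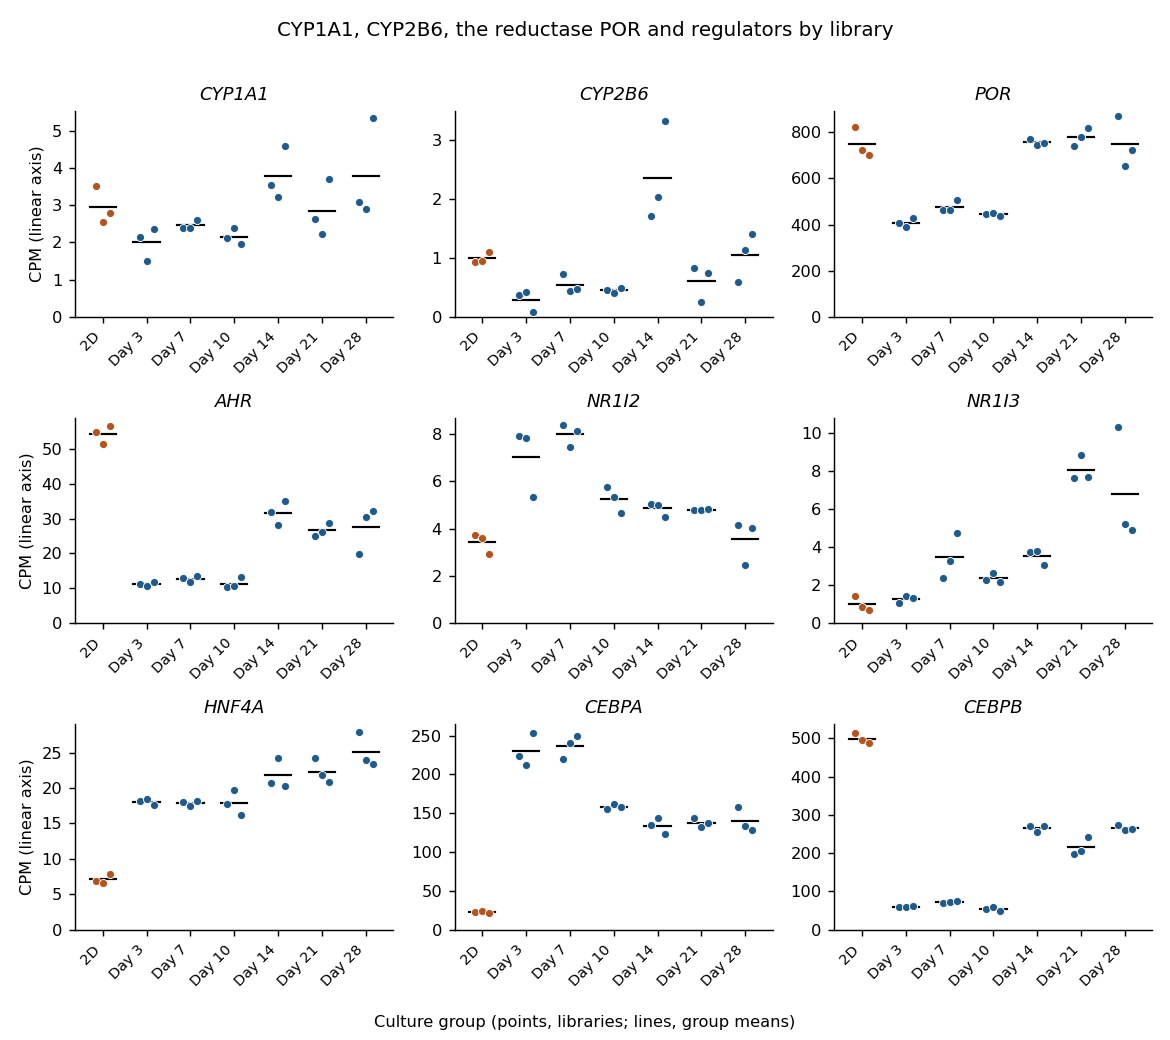
Level of CYP1A1, CYP2B6, the reductase POR and 6 regulators in each library (points) with group means (lines), in CPM on linear axes that differ between panels. AHR and CEBPB are lowest over Days 3 to 10 and stay below 2D at Day 28, NR1I2 has its highest mean at Day 7, 8.0 CPM, and NR1I3 at Day 21, 8.07 CPM.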

How the data were processed

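Per the labels' protocols, 100 ng of total RNA per library, purified on RNeasy columns, went into TempO-Seq, a targeted assay in which pairs of detector oligos are ligated on their transcript and sequenced. The authors deposited raw counts per gene symbol, whole numbers for all 21 libraries. Tools named in the submitters' processing notes, without roles, are STAR 2.7.10b, fastp 0.23.2, bcl2fastq 2.20.422 and DESeq2 1.38.0, with build GRCh38.p13. The way probes of a gene were combined was not given in the sources used here.

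The 36 members, all lists and the split into early and late spheroid days were chosen with earlier results of these data known. Of the members near detection, 1 is counted but not reported by name here. Genes passing filterByExpr (minimum count 10) were kept, 12345 genes, with 17 members. One edgeR 4.0.16 quasi-likelihood fit (R 4.3.3, TMM, robust, 14 residual degrees of freedom, biological coefficient of variation 9.62%) covered all 21 libraries; p-values were Benjamini-Hochberg adjusted over all genes and called under 0.05. The SE of a log2 fold change is its size divided by the square root of F. CPM uses TMM-scaled library sizes. Totals of 18760232 to 43443262 counts limit genes with few counts, and the limit that a count of 0 allows covers counting error only. The scripts were tested on simulated data.

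Every measured member is named. Values per library were given for CYP3A4, CYP3A5, CYP1A1, members reaching 10 CPM and those with the largest called changes, and for other lists the 2 largest called rises and falls on Day 3 and Day 28. Alternatives were RLE size factors, library size alone, no filter, at least 1 CPM in 3 libraries, DESeq2 1.42.0, only the groups compared, the replicate number as a block, and leaving out each library. Positions came from GENCODE 29 and promoters from RefSeq (GRCh38.p14), read with Biopython 1.88.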

Additional observations from a re-analysis of the deposited data

Results flagged for a closer look

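CYP2R1, the vitamin D hydroxylase, moved in opposite directions against the monolayer on Day 28 and Day 3. It was higher on Day 28, 0.48 ± 0.19 (adjusted p = 0.023), and lower on Day 3, -0.69 ± 0.19 (adjusted p = 0.00186). The higher value on Day 28 no longer passed in 2 fits that left out 1 library. Its adjusted p was 0.114 when the library dropped was monolayer replicate 2. For Day 28 replicate 1 it came to 0.0967. The difference between the 2 days was itself tested in edgeR and was 1.16 ± 0.19 (adjusted p = 3.97e-06), with all 3 Day 28 libraries above all 3 Day 3 libraries.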

How the results depend on the processing

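For the 15 measured members, no value against 2D or between days turned its direction while called under any alternative run. The tested members CYP2C19 and CYP4F3 were not checked in this way. Of the 27 counts of members called, RLE size factors, the filter at 1 CPM in 3 libraries and the replicate block kept each within 1.5 times. The lower calls on Day 14 against 2D, 2 in all, were 1 with library size alone and 1 to 2 when 1 library was left out. Those on Day 28 against 2D, 2 in all, were 1 with library size alone, 1 with no low count filter and 1 to 2 when 1 library was left out; the lost call was CYP4F11. On Day 14 against Day 10 the 4 lower calls were 2 to 4 when 1 library was left out. On Day 28 against Day 21 the 2 lower calls were 4 with no low count filter, 4 with DESeq2, 1 with only the groups compared and 0 to 4 when 1 library was left out, with 0 without Day 28 replicate 2 and 4 without Day 21 replicate 3. The cause was not tested. Without CYP2S1, the CYP3A share of the summed CPM was 8.52% in 2D, 38.7% on Day 3, 44.4% on Day 7, 32.2% on Day 10, 21.4% on Day 14, 23.2% on Day 21 and 15.6% on Day 28, since fewer genes share the sum. The values do not settle whether replicate numbers pair libraries. Of 63 same-numbered pairs, 0 had deviations correlated over 0.1 (median 0.0148, beside -0.0068 for pairs of other numbers). Yet 16 of 21 libraries correlated best with their own number, and the main fit used no pairing. The replicate block gave 11 higher calls on Day 28 against 2D in place of 10, and 5 lower on Day 3 in place of 4. It gave 3 lower on Day 28 against Day 21 in place of 2. Depth limits members with few counts in 2D, among them CYP3A4, CYP2J2, CYP4F2, CYP2D6, CYP3A43 and CYP2W1. It also limits CYP2B6 on Day 3 and the 15 members near detection.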
